A study of Mus musculus with 6 samples.

Results

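Macrophages and microglia, the phagocytes of peripheral tissue and of the brain, are known by a common set of genes. The set here holds 42 of them, covering complement C1q, Fc receptors and their adaptors, lysozymes and lysosomal proteins, the phagocyte oxidase, scavenger receptors and chemokines. They were taken from a fixed list of symbols, and each gene was read from the probe set, among those annotated to its symbol alone, with the highest mean log2 signal over 6 arrays. All 42 were measured, out of 18193 genes, through 73 of 45037 probe sets. The list was drawn up with the values of these arrays known, above all the high signals on 1 array, so what follows for that array is a description and carries no test.

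The arrays came from 2 groups of cultured mouse bone marrow stromal cells. The iLarge T BMSC, on replicates 2, 4 and 6, were Large T BMSC that had been given intravenously to male C57Bl/6J mice of 6 to 8 weeks of age, 24 h after 1 h of middle cerebral artery occlusion, and had been released with collagenase from the infarcted hemisphere 14 days later and grown again at 33°C. The naïve Large T BMSC, on replicates 1, 3 and 5, were the adherent marrow cells before injection. Both groups carry the H-2Kb-tsA58 transgene, a temperature-sensitive SV40 large T antigen under a major histocompatibility promoter, on a CBA/ca × C57Bl/10 hybrid background, and both are labelled as passaged 3 times and of a contact-dependent fibroblastoid phenotype. The recovered cells were selected by growth and adherence, not by a sort. The methods put naïve cells positive for CD11b and CD45 at under 1% by passage 3 and give no such measurement for the recovered cells. These were stained for large T antigen, which the paper reports in all cells isolated this way. It also reports no growth at 33°C from infarcts of mice given wild-type BMSC or saline. Each array held RNA pooled from 3 hemispheres or 3 naïve cultures, so the spread between arrays is that between pools.

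Macrophages arise from marrow progenitors and from the yolk sac, and microglia from the yolk sac alone. Both depend on the receptor for colony-stimulating factor 1 and on the transcription factor PU.1, engulf cells and debris, and carry C1q, Fc receptors and lysosomal proteases in quantity. After a stroke, resident microglia and infiltrating macrophages gather in and around the infarct. Bone marrow stromal cells are fibroblast-like cells that are commonly defined by the absence of CD45 and CD11b. Of 13 marrow stromal cell genes on a separate list, 12 were measured, and these 12 lay above near background on all 6 arrays.

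A MAS5 signal is the intensity of a probe set on a linear scale. The 40th percentile of each array, a signal of 183 to 299.6, served as the near-background limit, since the deposited table holds no detection calls. By that limit 22, 17 and 39 of the 42 genes were above near background on iLarge T replicates 2, 4 and 6, against 16, 17 and 13 on naïve replicates 1, 3 and 5. The share of all genes above it was even across arrays, at 70.6%, 71.5% and 73.0% on the iLarge T arrays, and 69.1%, 69.0% and 68.7% on the naïve arrays. The median signal of the 42 genes was 321, 201 and 3604 on the iLarge T arrays, and 176, 146 and 128 on the naïve arrays. Their summed signal was 35783, 35697 and 421122 on the iLarge T arrays, and 11415, 16787 and 15093 on the naïve arrays. At least 2-fold above the highest naïve array were 12, 10 and 35 of the 42 genes on iLarge T replicates 2, 4 and 6, against 11.3%, 10.1% and 9.27% of all genes. The plot of all 42 signals on each array shows most of the distribution moved up on iLarge T replicate 6. Of the 42 genes, 36 had their highest signal there, against 14.2% of all genes. On iLarge T replicate 4 more of the genes lay under the limit than above it, and on replicate 2 about as many.

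**Figure D1:**
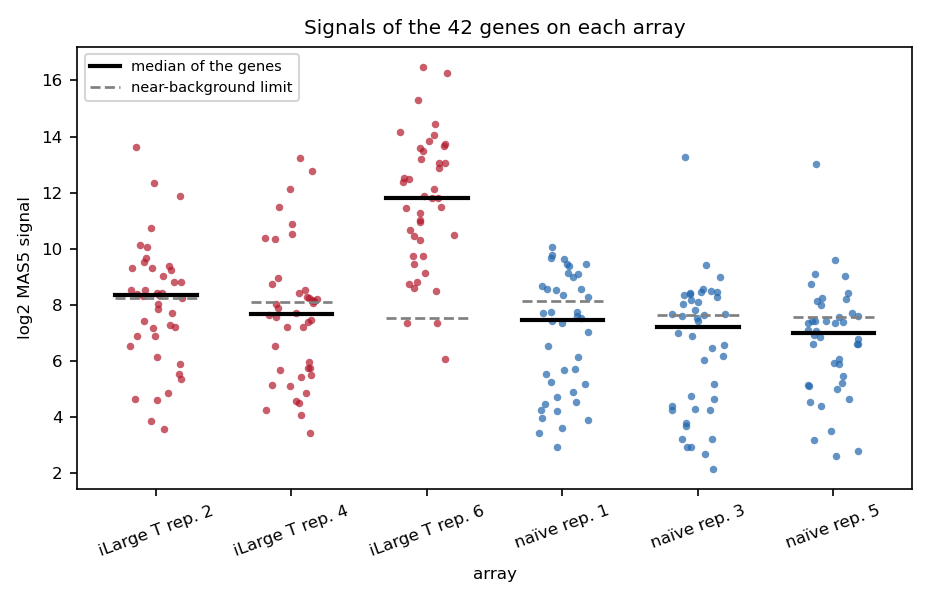
Log2 MAS5 signals of the 42 genes (points) on each of the 3 iLarge T and 3 naïve arrays, with the median of the genes (black line) and the near-background limit of the array (dashed line). On iLarge T replicate 6 the median signal is 3604 and 39 genes lie above the limit, while on the other 5 arrays the median lies between 128 and 321.

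On iLarge T replicate 6, 30 of the 42 genes were at least 2-fold above both other iLarge T arrays, where 6.42% of all genes were. With signals under the limit raised to it, 29 were. The same count was 0 for replicate 2 (8.92% of all genes) and 1, Siglech, for replicate 4 (6.64%). At least 4-fold, 25 of the 42 genes stood above both on replicate 6, against 2.40% of all genes, and at least 16-fold 18 did, against 0.253%. The median log2 difference of replicate 6 from the mean of replicates 2 and 4 was 3.65 over the 42 genes and -0.06 over all genes. Coro1a at 2.68-fold and Fcgr2b at 2.15-fold were the last inside the 2-fold bound, and Cd83 at 1.98-fold and Cd53 at 1.72-fold the first outside it. Among the 11747 genes with a signal above the median on replicate 6, 19 of the 50 with the largest excess over every other array belonged to the set, and 21 of the largest 100. Of the 42 genes, 10 were under the near-background limit on all 5 other arrays and above it on replicate 6 (1.57% of all genes were). In bulk RNA of this kind, fewer cells of a type and less RNA per cell cannot be told apart.

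**Figure D2:**
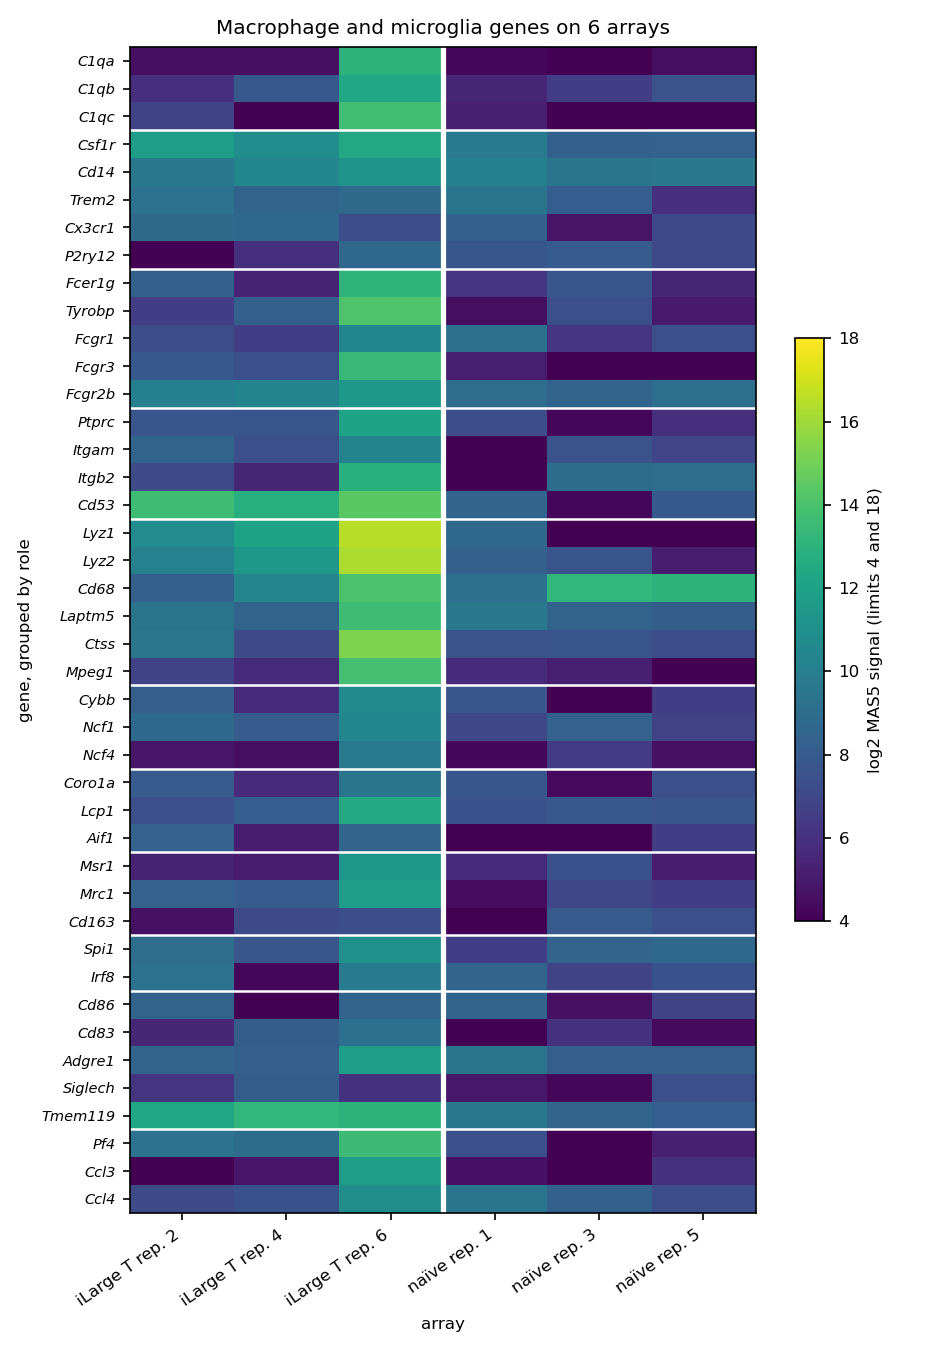
Heat map of log2 MAS5 signals of the 42 genes (rows, grouped by role) on the 3 iLarge T arrays and the 3 naïve arrays (columns), with the colour scale limited to 4 and 18. On iLarge T replicate 6, 39 rows lie above the near-background limit, and the rows of Csf1r, Cd53 and Tmem119 are bright on all 3 iLarge T arrays.

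PU.1 binds the PU box, whose purine-rich core reads GAGGAA, and promoters of many macrophage genes hold it. Of the 42 genes, 29 had a promoter entry, taken as 250 bases before to 50 after the RefSeq start in GRCm38.p6, and GAGGAA or its complement TTCCTC occurred in 17 of them, or 58.6%. It occurred in 31.3% of all 27025 genes with an entry and in 28.3% of all 32851 windows. The 3 promoters below belong to genes with a match that stood furthest above every other array on replicate 6: C1qc, the protease gene Ctss and the chemokine gene Ccl3. Each is printed 5′ to 3′ on the strand of the gene, with the 250 bases before the start and the first 30 after it, and capitals mark the PU box or its complement. Other purine-rich sequences that bind the factor were not searched, and a match in letters is not a measured site.
C1qc, chr4:136892885-136893164 (minus strand): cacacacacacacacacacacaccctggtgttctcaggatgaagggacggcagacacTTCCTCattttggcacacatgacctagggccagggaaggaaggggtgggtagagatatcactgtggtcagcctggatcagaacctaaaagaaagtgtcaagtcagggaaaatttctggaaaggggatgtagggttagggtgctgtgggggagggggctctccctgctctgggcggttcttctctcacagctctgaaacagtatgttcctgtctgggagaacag
Ctss, chr3:95526536-95526815 (plus strand): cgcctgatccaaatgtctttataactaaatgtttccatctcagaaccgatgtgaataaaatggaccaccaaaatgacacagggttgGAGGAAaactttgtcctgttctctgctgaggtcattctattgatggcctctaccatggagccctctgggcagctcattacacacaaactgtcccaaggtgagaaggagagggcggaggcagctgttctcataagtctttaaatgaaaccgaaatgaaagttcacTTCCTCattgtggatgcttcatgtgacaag
Ccl3, chr11:83649349-83649628 (minus strand): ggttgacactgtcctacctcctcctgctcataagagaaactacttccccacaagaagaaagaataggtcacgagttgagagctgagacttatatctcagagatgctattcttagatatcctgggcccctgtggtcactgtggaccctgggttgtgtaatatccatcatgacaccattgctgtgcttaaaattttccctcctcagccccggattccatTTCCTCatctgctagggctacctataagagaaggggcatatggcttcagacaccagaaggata
In C1qc the box lay 193 bases before the start and in Ccl3 33 bases before it, in both on the strand opposite to the gene. In Ctss it lay 164 bases before the start on the strand of the gene and again, on the opposite strand, at the start itself.

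C1q, the recognition molecule of the classical complement pathway, is built of A, B and C chains whose genes lie next to each other on chromosome 4. C1qa had signals of 23.9, 23.6 and 8547 on iLarge T replicates 2, 4 and 6, against 18.9, 9.15 and 23.0 on naïve replicates 1, 3 and 5. C1qc had 119, 10.6 and 13465 on the iLarge T arrays, against 37.8, 9.30 and 6.00 on the naïve arrays. C1qb had 58.4, 236 and 5329 on the iLarge T arrays, and 46.1, 93.8 and 192 on the naïve arrays. Replicate 6 alone carried the 3 chains, and apart from C1qb on naïve replicate 5 no other array was above near background in any of them. With signals under the limit raised to it, replicate 6 was at least 28.5-fold above the higher of the other iLarge T arrays for C1qa, at least 17.8-fold for C1qb and at least 45.0-fold for C1qc.

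The Fc receptors, which bind the constant part of antibodies, and the adaptors Tyrobp and Fcer1g, which carry the activating motif for these and other surface receptors, were each highest on replicate 6. Tyrobp had signals of 92.5, 310.0 and 18261 on the iLarge T arrays, and 22.7, 170.1 and 31.9 on the naïve arrays. Fcer1g, the common gamma chain, had 324, 42.7 and 9286 on the iLarge T arrays, and 70.1, 203 and 43.7 on the naïve arrays. Fcgr3, a low-affinity activating receptor, had 231, 168 and 11576 on the iLarge T arrays, and 35.8, 13.5 and 6.89 on the naïve arrays. Replicate 6 was 58.9-fold above the higher of the other iLarge T arrays for Tyrobp, 28.6-fold for Fcer1g and at least 38.6-fold for Fcgr3. Fcgr1, the high-affinity receptor, had 156, 92.3 and 1381 on the iLarge T arrays, against 558, 71.4 and 171 on the naïve arrays, so that naïve replicate 1 was above near background as well. Fcgr2b, the inhibitory receptor, differed from these in having signal on every array, at 1057, 1295 and 2789 on the iLarge T arrays and 511, 362 and 541 on the naïve arrays. Fcgr2b and Fcgr3 are close in sequence and neighbours on chromosome 1, and its 4 other probe sets read 10.2 to 302 on iLarge T replicates 2 and 4, so the level of Fcgr2b there is uncertain.

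Ptprc encodes CD45, the tyrosine phosphatase of all nucleated blood cells, and Itgam (CD11b) and Itgb2 (CD18) encode the chains of the integrin Mac-1. Ptprc had signals of 206, 196 and 4440.4 on the iLarge T arrays, and 161, 19.2 and 59.6 on the naïve arrays. Itgb2 had 145, 45.3 and 7512 on the iLarge T arrays, and 503 and 515 on naïve replicates 3 and 5, with naïve replicate 1 under the near-background limit. Itgam had 364, 174 and 1259 on the iLarge T arrays, and 10.6, 192 and 122 on the naïve arrays. All of these were highest on replicate 6, by at least 14.8-fold for Ptprc, at least 25.1-fold for Itgb2 and 3.46-fold for Itgam against the higher of the other iLarge T arrays. Ptprc was under the near-background limit on every other array, which includes iLarge T replicates 2 and 4. A second probe set of Ptprc did not share the pattern, with 189, 201 and 44.9 on the iLarge T arrays and 286, 11.7 and 119 on the naïve arrays.

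Lysozymes cleave bacterial cell walls, and all 6 genes of the lysozyme and lysosomal group were at least 2-fold above both other iLarge T arrays on replicate 6. Lyz2, the lysozyme of macrophages, had 1125, 2844 and 78316 on the iLarge T arrays, and 324, 200.4 and 34.2 on the naïve arrays. Lyz1, its tandem copy expressed in Paneth cells of the gut, had 1706, 4476 and 91309 on the iLarge T arrays, and 407, 7.51 and 8.97 on the naïve arrays. Lysozyme signal was thus also present on replicates 2 and 4, at 1.44% and 3.63% of the replicate 6 signal for Lyz2. The pair are near-identical neighbours on chromosome 10, and the probe set read for Lyz1 is of a kind that can cross-hybridise. The only Lyz1 probe set not of that kind had 170.5, 313 and 184 on the iLarge T arrays, and at most 205 on the naïve arrays, so the level of Lyz1 apart from Lyz2 is uncertain.

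Ctss, a cysteine protease of antigen-presenting cells, had signals of 742, 148 and 40287 on the iLarge T arrays, and 192, 197 and 164 on the naïve arrays. Mpeg1, a pore-forming protein of phagosomes, had 119, 53.4 and 14553 on the iLarge T arrays, and 50.1, 36.0 and 11.2 on the naïve arrays. Laptm5, a lysosomal membrane protein of blood cells, had 657, 345 and 13071 on the iLarge T arrays, and 802, 349 and 281 on the naïve arrays. Replicate 6 stood 54.3-fold above the higher of the other iLarge T arrays for Ctss, at least 48.6-fold for Mpeg1 and 19.9-fold for Laptm5. Cd68, a lysosomal glycoprotein widely used to stain macrophages, went another way among the naïve arrays. It had 317, 1329 and 16962 on the iLarge T arrays, against 544, 9873 and 8396 on the naïve arrays, where no other gene of the set was above 1062. Naïve replicates 3 and 5 were thus above iLarge T replicates 2 and 4 in Cd68, and replicate 6 was 1.72-fold above the higher of them.

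The phagocyte oxidase makes superoxide from a membrane core and cytosolic subunits. Cybb, its catalytic subunit, had 298, 50.2 and 1616 on the iLarge T arrays, and 209, 6.28 and 96.1 on the naïve arrays. Ncf1, an organising subunit in the cytosol, had 447, 260.0 and 1443 on the iLarge T arrays, and 129, 339.7 and 109 on the naïve arrays. Ncf4, a further cytosolic subunit, had 28.9, 22.6 and 859.8 on the iLarge T arrays, and 18.6, 87.9 and 24.9 on the naïve arrays. Against the higher of the other iLarge T arrays, replicate 6 was at least 5.39-fold higher for Cybb, 3.23-fold for Ncf1 and at least 2.87-fold for Ncf4. All 3 subunits of the set were thus above both. Of the oxidase genes outside the set, Rac2, the GTPase of blood cells, had 374, 327 and 1781 on the iLarge T arrays and 366, 318 and 43.3 on the naïve arrays, while Cyba and Rac1, used by many cell types, were not 2-fold above both.

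Among actin-binding proteins of leukocytes, Lcp1, or L-plastin, which bundles actin, had signals of 169, 293 and 5939.7 on the iLarge T arrays, and 183, 222 and 207 on the naïve arrays. Coro1a, a coronin, had 262, 52.7 and 703 on the iLarge T arrays, and 213, 20.8 and 168 on the naïve arrays. Aif1, which encodes the microglial stain Iba1, had 335, 35.2 and 386 on the iLarge T arrays, and 15.3, 7.60 and 97.0 on the naïve arrays. Lcp1 stood at least 19.8-fold above the other iLarge T arrays on replicate 6, whereas the Aif1 signals of replicates 2 and 6 were close. The scavenger receptors divided as well. Msr1, which takes up modified lipoproteins, had 40.2, 34.4 and 2865 on the iLarge T arrays, and 51.5, 182 and 35.1 on the naïve arrays. Mrc1, the mannose receptor, had 341, 267 and 3606 on the iLarge T arrays, and 21.8, 126 and 96.6 on the naïve arrays. Cd163, the haemoglobin scavenger receptor, had 24.9, 147 and 163 on the iLarge T arrays, and 7.58, 262 and 172 on the naïve arrays. Cd163 was therefore under the near-background limit on every iLarge T array, while Msr1 was at least 9.56-fold and Mrc1 10.6-fold above the higher of the other iLarge T arrays on replicate 6.

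Both transcription factors of the set were highest on replicate 6. Spi1, which encodes PU.1, had signals of 522, 206 and 2076 on the iLarge T arrays, and 92.6, 351 and 431 on the naïve arrays, a 3.98-fold excess of replicate 6 over replicate 2. Irf8, a partner of PU.1 needed for monocytes and microglia, had 595, 18.8 and 854 on the iLarge T arrays, and 375, 117 and 188 on the naïve arrays, an excess of 1.43-fold. Of 10 other myeloid transcription factors measured, 2, Cebpa and Irf5, were at least 2-fold above both other iLarge T arrays on replicate 6. Ikzf1, Batf3 and Sall1 of that list were lower there than on both. Ikzf1 had 347, 187 and 61.3 and Batf3 750.1, 199 and 62.4 on the iLarge T arrays, and both were under the near-background limit on replicate 6. Cebpa, which drives myeloid progenitors, had 834, 2206 and 5072 on the iLarge T arrays, and 44.7, 687 and 758 on the naïve arrays. Among kinases and adaptors downstream of CSF1R and the Fc receptors, 3 of 8 measured (Fgr, Btk and Blnk) were at least 2-fold above both. With signals under the limit raised to it, the excess was at least 9.33-fold for Blnk, 2.32-fold for Btk and 1.58-fold for Fgr. Btk had 694 on iLarge T replicate 6 but also 631 on naïve replicate 1. Syk, which docks on the adaptors named above, had 1597, 2897 and 2360.5 on the iLarge T arrays and 1349, 819 and 956 on the naïve arrays.

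The receptors for growth factors and innate signals did not share 1 pattern. Csf1r, the receptor for colony-stimulating factor 1, had signals of 3716, 1892 and 5673 on the iLarge T arrays, against 883, 330.2 and 339 on the naïve arrays. Cd14, a co-receptor for lipopolysaccharide, had 806, 1450.4 and 2443 on the iLarge T arrays, and 1062, 685 and 778 on the naïve arrays. Csf1r was above near background on all 6 arrays and did not overlap between the groups, whereas the Cd14 signals overlapped. Trem2, a lipid receptor that signals through Tyrobp, had 625, 371 and 451 on the iLarge T arrays, and 706, 288 and 58.3 on the naïve arrays. Its dimmer probe set gave a different picture, with 27.1, 89.4 and 6186 on the iLarge T arrays and 24.2, 30.1 and 61.0 on the naïve arrays. The choice of probe set thus decided whether Trem2 stood out on replicate 6, and over all probe sets of the set 52 of 73 were at least 2-fold above both other iLarge T arrays there, against 6.74% of all probe sets. For 5 of the 17 genes with more than 1 probe set, the one read was not 2-fold above and another was.

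Genes that set microglia apart from other macrophages were mixed. Tmem119, a membrane protein of microglia that is also made by bone-forming stromal cells, had signals of 5248, 9720.1 and 8499.5 on the iLarge T arrays, against 781, 378 and 293 on the naïve arrays, and was not higher on replicate 6. P2ry12, the ADP receptor of resting microglia, had 14.3, 62.3 and 423 on the iLarge T arrays, and 214, 273 and 134 on the naïve arrays. Cx3cr1, the fractalkine receptor, had 452, 428 and 164 on the iLarge T arrays, and 311, 26.6 and 136 on the naïve arrays. Siglech, a sialic acid-binding lectin of microglia and plasmacytoid dendritic cells, had 69.7, 284 and 67.2 on the iLarge T arrays, and 29.7, 19.0 and 169 on the naïve arrays. By the probe set read for each gene, Cx3cr1 and Siglech were under the near-background limit on replicate 6, and Cx3cr1 was the 1 gene of the set at least 2-fold below both other iLarge T arrays there. A second, dim probe set of Cx3cr1 ran the other way, with 69.1, 15.1 and 189 on the iLarge T arrays and at most 48.0 on the naïve arrays, so its direction on replicate 6 depends on the probe set. P2ry12 rested on low signals, and its excess over the limit of the other iLarge T arrays was at least 1.41-fold. On a list of 11 other microglia genes, of which 10 were measured, P2ry6 was 2.83-fold and Selplg 4.83-fold above the higher of the other iLarge T arrays on replicate 6 by the same measure, and Sparc, Tgfbr1, Olfml3 and Entpd1 were not. Sall1, a transcription factor of microglia that other tissues also use, had 1404, 1214 and 407 on the iLarge T arrays, and 861, 185 and 301 on the naïve arrays. The set on replicate 6 is therefore named here by its genes and not as microglia.

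Of the remaining surface genes, Adgre1, which encodes the macrophage marker F4/80, had signals of 371, 303 and 3601 on the iLarge T arrays, and 669.6, 307 and 299.7 on the naïve arrays, a 9.70-fold excess of replicate 6. Cd86, a costimulator of T cells, had 345, 16.5 and 359.7 on the iLarge T arrays, and 367, 24.5 and 115 on the naïve arrays. Cd83, a marker of mature antigen-presenting cells, had 46.0, 281 and 557 on the iLarge T arrays, and 14.8, 65.3 and 20.9 on the naïve arrays. Cd86 did not separate replicate 6 from replicate 2, and Cd83 stood just outside 2-fold. The chemokines did separate it. Pf4, or CXCL4, of platelets and macrophages, had 634, 490.5 and 12289.9 on the iLarge T arrays, and 169, 12.7 and 36.9 on the naïve arrays. Ccl3, which draws monocytes, had 11.8, 28.7 and 3715 on the iLarge T arrays, and 26.0, 4.41 and 66.3 on the naïve arrays. Ccl4, its neighbour on chromosome 11, had 147, 188 and 1971 on the iLarge T arrays, and 690.2, 321 and 161 on the naïve arrays. Replicate 6 was 19.4-fold above the higher of the other iLarge T arrays for Pf4, at least 12.4-fold for Ccl3 and at least 6.58-fold for Ccl4. Ccl4 was also above near background on naïve replicates 1 and 3, while Pf4 was so on all 3 iLarge T arrays and on no naïve array.

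The naïve arrays differed among themselves too. On naïve replicate 1, 16 of the 42 genes were at least 2-fold above both other naïve arrays, against 15.5% of all genes. They included Csf1r, Trem2, Fcgr1, Laptm5, Adgre1 and Ccl4. Also among them were C1qc, Fcgr3, Ptprc, Cybb and Pf4, which were under the near-background limit there. At least 2-fold below both were 7, namely C1qb, Itgam, Itgb2, Cd68, Mrc1, Cd163 and Spi1, against 14.2% of all genes. On naïve replicate 3, 6 were above both (4.69% of all genes) and 11 below (7.64%). For naïve replicate 5 the counts were 4 above (4.01%) and 3 below (8.90%). The summed signal of the 42 genes was nonetheless lowest on naïve replicate 1, the naïve array with the lowest Cd68. Across probe sets, which are not independent, log2 signals of naïve replicate 1 correlated with the other naïve arrays at 0.829 and 0.831, against 0.892 between these, so that this array stood somewhat apart.

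The question that the design asks of these genes is how recovered and naïve cells differ as groups. The comparison used limma, a linear model that shares the spread across probe sets, with Benjamini-Hochberg adjustment over all 45037 probe sets, and a gene was called where that p was under 0.05 and the groups differed 2-fold or more. It includes replicate 6, whose values had entered the choice of the genes. Of the 42 genes, 4 were called higher in iLarge T BMSC (3.54% of all genes were called higher), 0 were called lower (3.26%), and 38 were not called (6.80% of all genes were called either way). At an unadjusted p under 0.05 there were 12 (22.0% of all genes), and for 12 the iLarge T and naïve signals did not overlap (27.6%). The median log2 fold change was 1.95 over the 42 genes and 0.06 over all genes. With replicate 6 included, 40 of the 42 values were positive. Without replicate 6 the median was 0.94, against 0.10 over all genes, and 2 genes were called higher (1.59% of all genes) and 0 lower (1.90%). The values of P2ry12, Fcgr1, Itgb2, Cd68, Ncf4, Msr1, Cd163, Irf8, Cd86, Adgre1, Ccl3 and Ccl4 were then negative.

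**Figure D3:**
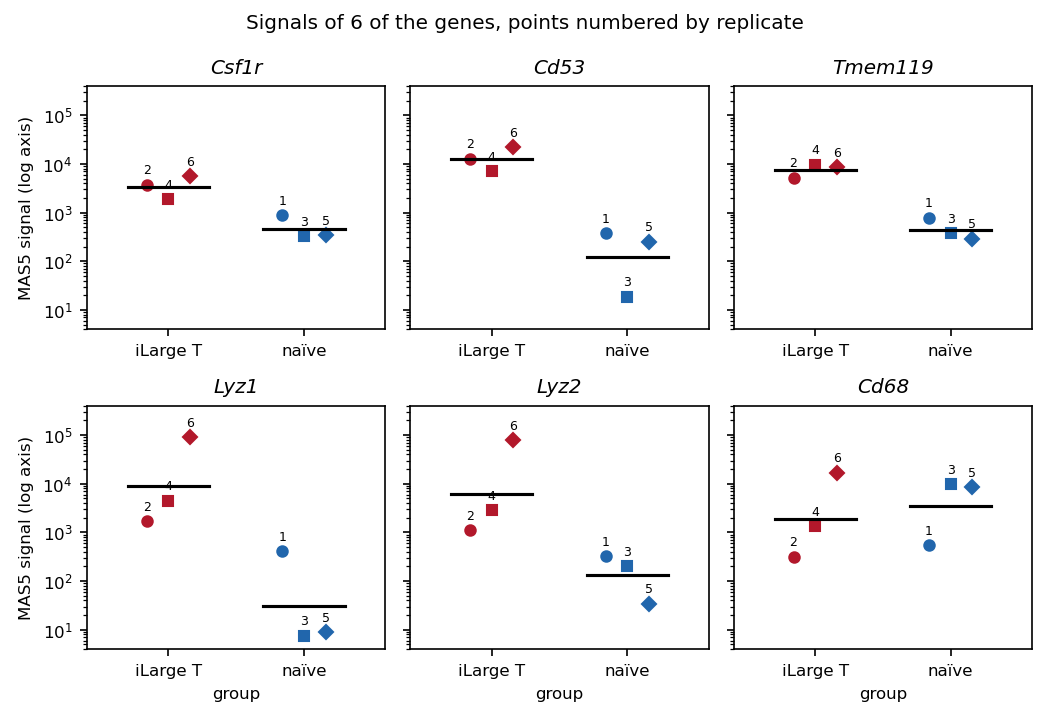
MAS5 signals, on a log axis, of 6 of the genes on the iLarge T and the naïve arrays, each point numbered by its replicate and each bar the geometric mean of 3 arrays. Csf1r, Cd53 and Tmem119 are higher on all 3 iLarge T arrays than on any naïve array, Lyz1 and Lyz2 are so with replicate 6 far above, and Cd68 overlaps.

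Tmem119 averaged 7822 ± 2312 in iLarge T BMSC and 484 ± 261 in naïve cells (SD, n = 3 each), which limma put at 4.10 on the log2 scale with a standard error of 0.44 (adjusted p = 0.00119). Cd53, a tetraspanin of blood cells that organises surface receptors, had signals of 12791, 7005 and 22055 on the iLarge T arrays, against 374, 18.8 and 254 on the naïve arrays, a difference of 6.69 in log2 signal with a standard error of 0.98 (adjusted p = 0.00515 in limma). These 2 calls did not rest on replicate 6, as without it limma gave 4.01 for Tmem119 (adjusted p = 0.0120) and 6.29 for Cd53 (adjusted p = 0.0378). Replicates 2 and 4 held 58.0% and 31.8% of the Cd53 signal on replicate 6, and 65.5% and 33.4% of that of Csf1r, while they held 5.16% and 3.99% for Pf4 and 1.84% and 0.368% for Ctss. A second, dim probe set of Cd53 did not show it, with 9.95, 12.7 and 136 on the iLarge T arrays and 27.4, 7.06 and 121 on the naïve arrays, and with the mean of both probe sets the adjusted p was 0.152.

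Csf1r averaged 3760.3 ± 1891 in iLarge T BMSC and 517 ± 316 in naïve cells (SD, n = 3 each), a difference of 2.89 in log2 signal with a standard error of 0.54 (adjusted p = 0.0151 in limma). Without replicate 6 the value was 2.52 and the adjusted p 0.0806 in limma, so this call was lost, as it was without iLarge T replicate 2 (0.0733), naïve replicate 3 (0.0610) or naïve replicate 5 (0.0517). All 3 of the Csf1r probe sets were higher on each iLarge T array than on any naïve array. Those not read for it were not called, with differences of 1.05 (adjusted p = 0.177) and 3.66 (adjusted p = 0.0690) in limma. Lyz1 differed by 8.20 in log2 signal, with a standard error of 1.70 (adjusted p = 0.0245 in limma), with 2 naïve arrays under the near-background limit. With those raised to the limit the excess of iLarge T BMSC was 35.9-fold. The Lyz1 call was lost without replicate 6 (adjusted p = 0.112 from limma), without iLarge T replicate 4 (0.0800), and without naïve replicate 3 (0.0830) or 5 (0.0720), and with the Lyz1 probe set that is not prone to cross-hybridise the difference was 1.09 (adjusted p = 0.668). Lyz2 itself had a log2 fold change of 5.59 and an adjusted p of 0.0525 from limma, which was not a call.

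Pf4 (log2 fold change 5.19, adjusted p = 0.0626), Fcgr2b (1.75, 0.0810) and Fcgr3 (5.68, 0.0827) were next in limma, and none was called. All 3 naïve arrays were under the near-background limit for Pf4 and Fcgr3. With those raised to the limit, the excess of iLarge T BMSC was 7.15-fold for Pf4 and 3.50-fold for Fcgr3. For Pf4, Fcgr2b, Fcgr3 and Lyz2, leaving out naïve replicate 1 gave a call. C1qa, Tyrobp, Ctss and Mpeg1 had adjusted p-values of 0.460, 0.269, 0.355 and 0.308 from limma. Over all 3 iLarge T arrays, replicate 6 included, the SD of their signals was above the mean. Ctss, for instance, averaged 13726 ± 23004 in iLarge T BMSC and 184 ± 17.9 in naïve cells (SD, n = 3 each). With replicate 6 included, the 2 negative values in limma were those of P2ry12 (-1.46, adjusted p = 0.639) and Cd68 (-0.88, adjusted p = 0.822).

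CSF1R has the ligands Csf1 and Il34. Csf1 had signals of 46036, 61557 and 33108 on the iLarge T arrays, and 45584, 11467 and 10224 on the naïve arrays, and was not called. Il34 had 1493, 1229 and 6572 on the iLarge T arrays, against 56.5, 299.9 and 54.2 on the naïve arrays, a difference of 4.56 in log2 signal with a standard error of 0.88 (adjusted p = 0.0176 in limma). With 2 naïve arrays under the near-background limit raised to it, the excess of iLarge T BMSC in Il34 was 9.16-fold. Il34 was highest on replicate 6, and without that array the difference was 3.80 and the call was lost (adjusted p = 0.101 in limma).

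Further lists of 194 genes in 23 groups, 176 of them measured, showed which other cell type genes moved with replicate 6. Among groups of related function, 6 of 12 other macrophage chemokines and cytokines (Ccl6, Ccl9, Ccl12, Cxcl16, Il18 and Tgfb1, with Ccl12 at 1.49-fold once signals under the limit are raised to it) were at least 2-fold above both other iLarge T arrays, as were 4 of 12 measured genes of activated microglia (Apoe, Lpl, Itgax and Clec7a) and 2 of 7 measured monocyte and chemokine receptor genes (Ccr1 and Cd300a). Ccr2 of the last list ran the other way by the probe set read, with 455, 384 and 57.6 on the iLarge T arrays. On the naïve arrays Ccr2 had 86.6, 86.7 and 459.9. Apoe, a lipid carrier of glia and macrophages, had signals of 2882, 8247 and 49293 on the iLarge T arrays, and 733, 1719 and 1661 on the naïve arrays. The inflammatory cytokine Il1b was lower on replicate 6 than on replicates 2 and 4, with 811, 692 and 235 on the iLarge T arrays, against 285, 255 and 304 on the naïve arrays. Presentation through major histocompatibility class II did not accompany the set. None of 6 measured genes was 2-fold above both, their median log2 difference was 0.23, and their summed signal was 2643, 3309 and 3280.0 on the iLarge T arrays, against 2347, 3413 and 2990.4 on the naïve arrays. Cd74, the invariant chain of class II, had 408, 64.9 and 189 on the iLarge T arrays and 413, 1047 and 705 on the naïve arrays.

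**Figure D4:**
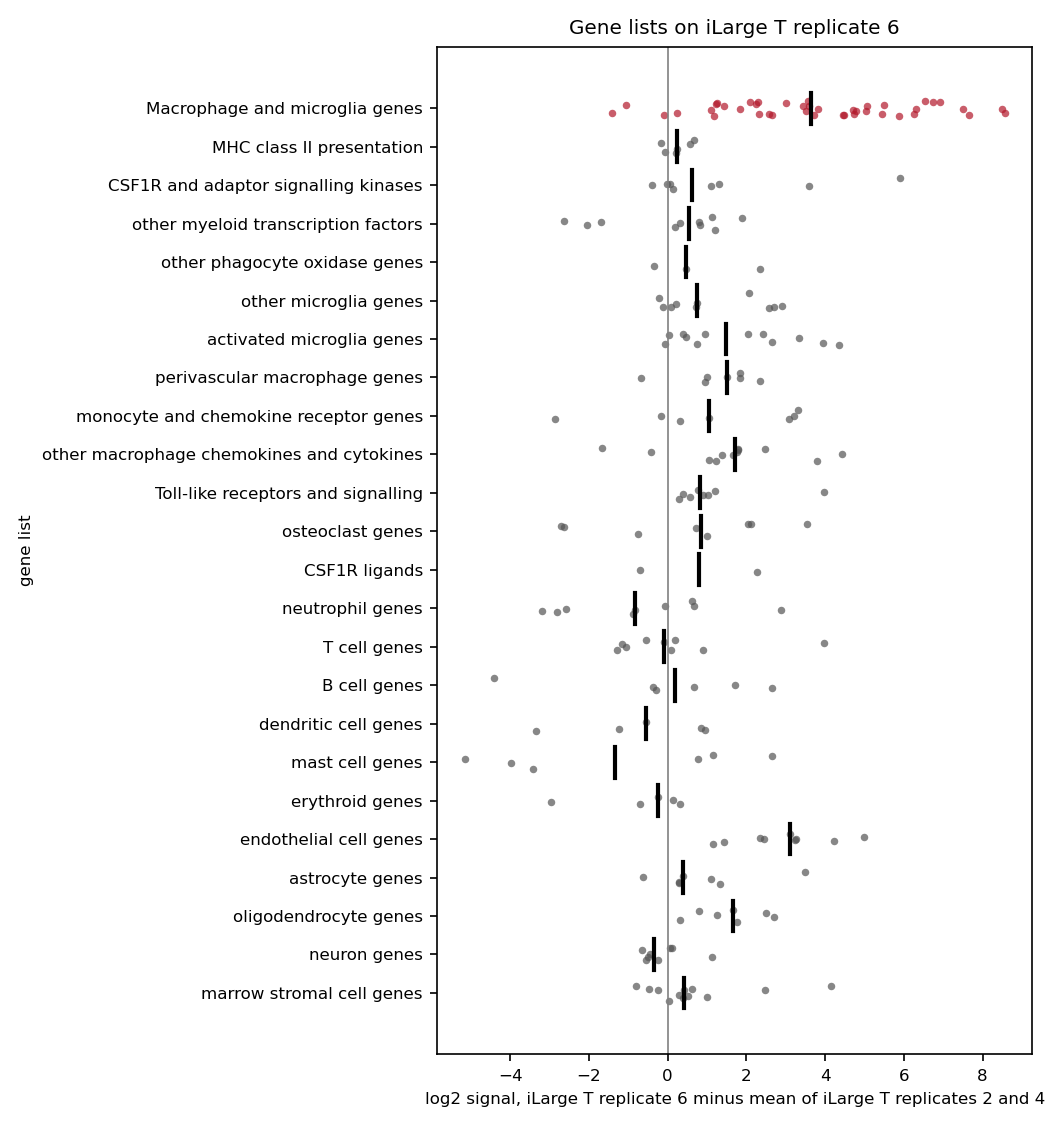
Log2 difference in signal of iLarge T replicate 6 from the mean of iLarge T replicates 2 and 4 for each gene (points) of the 42 macrophage and microglia genes (red) and of 23 other lists (grey), with the median of each list as a bar. The medians of the set, 3.65, and of endothelial cell genes, 3.12, are the highest.

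Endothelial cell genes had the next highest median after the set on replicate 6. All 9 were measured, and 8 (Pecam1, Cdh5, Tek, Tie1, Emcn, Cldn5, Vwf and Esam) were at least 2-fold above both other iLarge T arrays, with a median log2 difference of 3.12. Their summed signal was 9451, 9506 and 62847 on the iLarge T arrays, and 8471, 11190.1 and 11907 on the naïve arrays. Of the naïve sums, Tek alone made up 5703, 8480.1 and 9080.2. Between the groups limma called Tek lower in iLarge T BMSC and Cdh5 and Emcn higher, each also without replicate 6, and did not call the other 6. Cdh5, which encodes VE-cadherin, had 2211, 2787 and 23797 on the iLarge T arrays, against 209.9, 32.0 and 27.5 on the naïve arrays. Pecam1, the adhesion molecule CD31 that some macrophages and platelets also carry, had 62.5, 580.2 and 3559.5 on the iLarge T arrays, against 62.2, 21.9 and 12.6 on the naïve arrays. All 9 genes were above near background on replicate 6. Their part in the signals of the macrophage and microglia genes was not tested.

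Lists of other blood cells had medians near or under 0. The median log2 difference of replicate 6 from replicates 2 and 4 was -0.84 for neutrophil genes (9 measured), -0.10 for T cell genes (9), 0.19 for B cell genes (6), -0.56 for dendritic cell genes (5), -1.33 for mast cell genes (6) and -0.25 for erythroid genes (5). The summed signal of the neutrophil genes was 3628, 3776 and 3791 on the iLarge T arrays, against 2284, 1111 and 477 on the naïve arrays, and S100a9, Elane and Cxcr2 were under the near-background limit on replicate 6. With signals under the limit raised to it, Il7r of the T cell list was at least 9.78-fold and Kit of the mast cell list 2.09-fold above the higher of the other iLarge T arrays. Brain cell genes were measured as well, since the cells came out of a hemisphere. The median was 0.40 for 7 astrocyte genes, 1.65 for 7 oligodendrocyte genes and -0.36 for 8 neuron genes. The oligodendrocyte value rested on low signals, and Olig2, at the median, had 308, 15.4 and 216 on the iLarge T arrays. With signals under the limit on replicates 2 and 4 raised to it, replicate 6 was 0.744-fold their geometric mean for Olig2. Over the oligodendrocyte genes this ran from 0.214-fold (Mog) to 3.07-fold (Mbp). Gfap, the filament of astrocytes, had 446, 173 and 3104 on the iLarge T arrays, and 283, 189 and 23.1 on the naïve arrays. The 12 measured marrow stromal cell genes had a median difference of 0.40, and their summed signal was 779212, 530569.6 and 700046 on the iLarge T arrays, against 586854, 367769.8 and 379223 on the naïve arrays, so the sum on replicate 6 lay within the range of the other iLarge T arrays. Thy1 and Lum of this list were at least 2-fold above both other iLarge T arrays on replicate 6. Thy1 had 3648, 1462 and 41122 and Lum 4148, 906 and 10717 on the iLarge T arrays.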

How the data were processed

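RNA of 3 iLarge T and 3 naïve Large T pools was hybridised to Affymetrix whole-genome mouse arrays. The deposited values are intensity signals that the authors made with the MAS5 algorithm, each array scaled to a trimmed mean of 2500. The trimmed mean of each array was checked, and log2 was taken before any test. With 6 arrays, precision is limited by their number.

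The table held 45101 probe sets, of which 64 controls were removed. The annotation gives 34945 of the remaining 45037 a single symbol, 932 more than 1 and 9160 no symbol, and genes were named from those with a single symbol. A RefSeq gene table matched 34741 of these by identifier and changed 0 symbols. The genes and lists were chosen with earlier results of these data known, the lists from general knowledge. Listed genes with no such probe set are not analysed here.

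Groups were compared with limma 3.58.1 in R 4.3.3 (lmFit, eBayes with an intensity trend) on all 6 arrays, with Benjamini-Hochberg adjustment over all probe sets. The steps were tested on simulated data. Tables, counts and figures used Python 3.11.15 with pandas 2.3.3, numpy 2.4.6, matplotlib 3.10.9 and scipy 1.17.1. Named are every member, the up to 4 genes of each other list with the highest mean log2 signal (not all are printed), every called gene of a list, and the 20 other genes that stood furthest above the remaining 5 arrays on iLarge T replicate 6 with a signal above its median. Other genes at least 2-fold above on that array were named after their values were seen. So were single genes such as Sall1, Cebpa, Ikzf1, Batf3, Ccr2, Il1b, Pecam1, Olig2 and Gfap. Alternatives were quantile normalization, a floor at each array's 40th percentile, a pseudocount of 16, other probe sets per gene, the methods' t-test, limma without the trend, a filter on dim probe sets, other fold and background limits, and leaving out each array. Promoter sequences are those of RefSeq, GRCm38.p6.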

Additional observations from a re-analysis of the deposited data

How the results depend on the processing

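Of the 42 genes, 4 were called between the groups, and this count was 7 with signals under the 40th percentile raised to it, 1 with limma without the intensity trend, and 0 with the methods' t-test on log2 or on linear signals after Benjamini-Hochberg adjustment. It was 2 to 8 with 1 array left out, lowest without iLarge T replicate 6, naïve replicate 3 or naïve replicate 5, and highest without naïve replicate 1. The 4 calls were each lost under the t-tests, with adjusted p-values of 0.0833 and 0.152 for Tmem119. That of Cd53 was also lost in limma without the trend (0.0852), and that of Csf1r with its most variable probe set (0.0690) or without the trend (0.115). The median log2 difference of replicate 6 from replicates 2 and 4, 3.65, was 2.64 with low signals raised to the limit and 4.34 with the most variable probe set of each gene. It was 3.65 to 4.12 with 1 other array left out. The count at least 2-fold above both other iLarge T arrays lay between 28 and 35 over the alternatives that kept the 2-fold bound. With low signals raised to the limit it was 29, as P2ry12 fell outside. The count above near background on replicate 6 lay between 37 and 41. No result followed through the alternatives changed direction, but the group differences of other genes, such as Itgb2 and Msr1, did so without replicate 6. The cause of the differences was not tested. No paired analysis was possible because the groups share no replicate numbers and the sources used here do not say which arrays belong together, although the methods call the analysis pair-wise. Folds against signals under the limit are bounds, and 1 array carries the pattern with no replicate of its own.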

Other observations

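The 20 genes outside the set that stood furthest above every other array on iLarge T replicate 6, with a signal above its median, were chosen by these values and described without a test. Wfdc17, a secreted protease inhibitor homolog of activated macrophages that lies beside the chemokine genes of chromosome 11, had signals of 73.4, 77.8 and 22370.1 on iLarge T replicates 2, 4 and 6, against 19.9, 138 and 17.0 on naïve replicates 1, 3 and 5. Mmp12, the macrophage elastase, had 218, 272 and 12657 on the iLarge T arrays, against 35.6, 108 and 2.96 on the naïve arrays. Clec7a, the beta-glucan receptor dectin-1, had 371, 488 and 8659 on the iLarge T arrays, and 29.1, 135 and 148 on the naïve arrays. Slc15a3, Cd48, Ms4a7, Plek, Clec4d, Blnk, Clec4n, Ccl6, Igsf6, Ms4a6d, Cd93, Adam8, Il7r, Cyth4 and Fermt3 were also among them. With signals under the limit raised to it, they lay 1.89-fold (Igsf6) to 29.7-fold (Plek) above the higher of the other iLarge T arrays, as lower bounds where both of those were under the limit. None of the 20 was called between the groups by limma.

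The 20 also held Ttr and Erg. Ttr, which encodes the thyroxine carrier transthyretin of liver and choroid plexus, had signals of 11.0, 109 and 9958 on the iLarge T arrays, and 194, 212 and 253 on the naïve arrays. Erg, an endothelial transcription factor, had 53.6, 24.2 and 1312 on the iLarge T arrays, and 57.0, 20.5 and 19.6 on the naïve arrays.

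Some genes of the other lists were called between the groups. Pdgfrb, the receptor of pericytes and fibroblasts, had signals of 37997, 49816 and 57316 on the iLarge T arrays, against 2547, 4278 and 4188 on the naïve arrays, a log2 fold change of 3.74 (adjusted p = 4.20e-04 from limma). Ctsd and Ctsk, lysosomal proteases of many cells and of osteoclasts, were called higher by 1.44 (adjusted p = 0.0237) and 1.62 (adjusted p = 0.0192) in limma. Lpl, a lipase of adipocytes and macrophages, was called lower (log2 fold change -4.33, adjusted p = 0.0281 from limma), and it had 1065, 808 and 14321 on the iLarge T arrays, against 23338, 71142 and 60780.4 on the naïve arrays. Lpl was thus highest on replicate 6 among the iLarge T arrays and lower there than on any naïve array. The endothelial receptor Tek was also called lower (-3.51, adjusted p = 0.00243 from limma), with 502, 458 and 1300.3 on the iLarge T arrays, against 5703, 8480.1 and 9080.2 on the naïve arrays. Also called higher by limma were Runx1, Ly96, S100a8, S100b, Nefm, Tubb3, Stmn2, Cd44, Cdh5 and Emcn, with log2 fold changes of 1.45 to 6.54, and Olfml3, Bst2 and Dcn were called lower, by -1.26 to -3.31. Without replicate 6 the calls of Ctsd (adjusted p = 0.104), Ctsk (0.0810), Runx1 (0.153), Ly96 (0.0936), S100a8 (0.122), Tubb3 (0.189), Stmn2 (0.110), Cd44 (0.0580) and Bst2 (0.0610) were lost in limma, and those of the other genes named here were not.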
